A study of Homo sapiens with 18 samples.

Results

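The genes described here are the IGF binding proteins IGFBP1 to IGFBP7 and the receptor IGF1R, 8 of the 40266 gene symbols in the expression table, taken by their symbols in all 6 groups. The study sequenced RNA of the human pancreatic ductal adenocarcinoma lines Panc1 and Panc89 in 18 libraries, 3 for each group. Panc1, from a primary tumor, served as the mesenchymal-like model, and Panc89, from a lymph node metastasis, as the epithelial model. Each line was measured as parental cells, as a Holoclone line and as a Paraclone line, the clone-derived lines standing for cancer stem cells and non-stem cells, respectively. Each Holoclone and Paraclone line was expanded from 1 clone, so what belongs to the clone type and what belongs to that clone cannot be told apart. The replicates were 3 passages of the same cells, and p-values therefore measure the spread between passages.

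The genes were chosen by measured values of these data, with results in view. The choice rested on the difference of IGFBP7 between Holoclone and Paraclone cells in both lines, and IGFBP2 had been singled out for its parental and clone values. All differences between Holoclone and Paraclone cells within a line are therefore given for the 8 genes as descriptions with no test, as are all differences of IGFBP2, the clone-against-parental differences of IGFBP7 and its difference between the lines within each clone type. IGFBP1 and IGFBP5 reached 1 TPM mainly through the group where each was highest, Panc1 Paraclone and parental Panc89, and their differences from that group are likewise descriptions.

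IGFBP1 to IGFBP6 are secreted proteins that bind IGF1 and IGF2 with high affinity, carry them, keep them from IGF1R, the receptor tyrosine kinase of both ligands, or hand them over once a protease cuts the binding protein. IGFBP7, also known as MAC25 or angiomodulin, binds IGFs only weakly and has been described as a matrix and vessel protein and as a partner of IGF1R itself. In pancreatic carcinoma, IGF ligands can come from the tumor cells or from the stroma, and signal through insulin receptor substrates, PI3K and AKT.

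The libraries were comparable in the measures the table allows. Between 12932 and 14199 genes per library reached 1 TPM (a level scaled to transcript length and to the total of a library), mitochondrially encoded transcripts made up 5.62% to 9.44% of a library, and replicates of a group correlated with Pearson's r of 0.954 to 0.992 across genes, which are not independent replicates. The number of reads behind each value is unknown. All 8 genes passed the filter on low values, 1 TPM in at least 3 libraries. All 5 epithelial markers reached 1 TPM, and their summed level, mostly of keratins, was 2593 to 5016 TPM over all libraries. CDH1 had group means of 0.990 to 2.84 TPM in Panc1 and 75.3 to 98.0 TPM in Panc89. Those of EPCAM were 1.73 to 29.2 and 178 to 279 TPM. The summed level of 4 mesenchymal markers was 2050 to 5059 TPM in Panc1 and 5.36 to 31.6 TPM in Panc89 libraries. In Panc1 this sum was mostly VIM (means of 2465 to 4318 TPM). ZEB1 was also higher in Panc1, whereas CDH2 means overlapped (1.38 to 13.8 and 3.10 to 8.32 TPM). FN1 was higher in Panc89 (1.20 to 13.6 TPM) than in Panc1 (0.213 to 0.464 TPM). Of 7 fibroblast and stellate cell markers, DCN, COL1A2, COL3A1 and PDGFRA stayed under 1 TPM in every library, LUM and PDGFRB reached at most 1.15 and 1.13 TPM, and COL1A1 had group means of 1.01 to 24.9 TPM, with summed levels of the list of 1.44 to 27.4 TPM. Of 4 leukocyte markers, PTPRC and CD3E stayed under 1 TPM in every library, and CD68 had group means of 11.1 to 134 TPM. CD14 had means of 3.97 TPM in parental Panc89, 0.191 TPM in Panc89 Holoclone and 3.20 TPM in Panc89 Paraclone cells. Its means in the Panc1 groups were at most 0.522 TPM. In such bulk samples, fewer cells of a type and less RNA per cell cannot be told apart.

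On GRCh38, with the GENCODE 44 annotation, 4 of the binding protein genes lie in facing pairs. IGFBP1 (chr7:45888360-45893660, plus strand, 4 exons) and IGFBP3 (chr7:45912245-45921874, minus strand, 5 exons) are 18584 bases apart, and IGFBP2 (chr2:216632828-216664436, plus strand, 4 exons) and IGFBP5 (chr2:216672105-216695549, minus strand, 4 exons) are 7668 bases apart. IGFBP4 lies at chr17:40443450-40457725 (plus strand, 4 exons), IGFBP6 at chr12:53097436-53102345 (plus strand, 4 exons), IGFBP7 at chr4:57030773-57110385 (minus strand, 5 exons) and IGF1R at chr15:98648539-98964530 (plus strand, 21 exons). All 8 are protein-coding genes.

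The RefSeq promoter table (GRCh38.p14) held windows for 6 of the 8 genes, all except IGFBP1 and IGFBP7. The 250 bases before the start site are printed for IGFBP2, IGFBP3, IGFBP4 and IGFBP6, the binding proteins with a window that led, or stood next to the leader, in the summed IGFBP level of a group. Capitals mark matches, on either strand, to the TATA box TATAAA, the SP1 GC box GGGCGG, and the E-box CACCTG that ZEB and SNAI factors bind. The AP-1 site TGANTCA was also searched and was not in these windows, and no printed matches overlap.
IGFBP2, chr2:216633170-216633419, plus strand: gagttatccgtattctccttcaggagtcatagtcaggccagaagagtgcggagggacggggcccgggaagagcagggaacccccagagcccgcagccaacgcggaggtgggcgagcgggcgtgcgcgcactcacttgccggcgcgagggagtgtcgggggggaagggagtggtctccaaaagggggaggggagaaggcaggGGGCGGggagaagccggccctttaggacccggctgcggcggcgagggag
IGFBP3, chr7:45921273-45921522, minus strand: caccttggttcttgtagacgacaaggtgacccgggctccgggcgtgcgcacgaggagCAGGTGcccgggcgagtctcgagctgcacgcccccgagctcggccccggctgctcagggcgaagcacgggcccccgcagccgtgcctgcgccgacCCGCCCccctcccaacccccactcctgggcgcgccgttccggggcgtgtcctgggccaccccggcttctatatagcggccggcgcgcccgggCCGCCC
IGFBP4, chr17:40443200-40443449, plus strand: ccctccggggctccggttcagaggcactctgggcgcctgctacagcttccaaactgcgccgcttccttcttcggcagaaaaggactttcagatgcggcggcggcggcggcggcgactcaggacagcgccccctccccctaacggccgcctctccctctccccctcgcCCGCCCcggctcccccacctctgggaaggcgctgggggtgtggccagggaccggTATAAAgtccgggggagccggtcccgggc
IGFBP6, chr12:53097417-53097666, plus strand: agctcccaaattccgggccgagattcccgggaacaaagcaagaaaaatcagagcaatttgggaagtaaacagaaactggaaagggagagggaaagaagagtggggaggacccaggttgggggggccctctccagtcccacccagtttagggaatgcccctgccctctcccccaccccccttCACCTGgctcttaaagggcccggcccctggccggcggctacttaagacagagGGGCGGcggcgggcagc
TATAAA was found in IGFBP4 alone of the 4, starting 29 bases before the start site, and was in 10.7% of all 35116 promoter windows of this length. GGGCGG was in each of the 4 windows and in 42.6% of all windows. CACCTG was in the windows of IGFBP3, as its complement CAGGTG, and IGFBP6, and in 17.5% of all windows. TGANTCA was in 6.57% of all windows. The windows of IGFBP2, IGFBP3 and IGFBP4 held 22, 32 and 24 CpG dinucleotides, whereas that of IGFBP6 held 9, against a median of 11 over all windows. The window of IGF1R, which is not printed, held 48 CpG dinucleotides, more than 99.7% of all windows. A match describes the sequence and is not a measured binding site.

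The leading binding protein by mean share differed between the groups, with IGFBP7 leading in 3 of the 6. IGFBP2 took 85.6% ± 0.601 (SD, n = 3) of the summed TPM of the 7 IGFBP genes in parental Panc1 cells. IGFBP7 took the largest share in Panc1 Holoclone cells with 59.5% ± 3.99, whereas in Panc1 Paraclone cells IGFBP4 led with 72.5% ± 8.88, followed by IGFBP3 with 22.2% ± 8.28. Parental Panc89 cells held a mixture of IGFBP7 (37.7% ± 4.04), IGFBP6 (30.4% ± 8.82) and IGFBP3 (23.2% ± 7.16). In parental Panc89 replicate 2, IGFBP6 led with 40.6%, against 33.4% for IGFBP7. In Panc89 Holoclone cells the same IGFBP7 (63.6% ± 11.6) and IGFBP6 (34.5% ± 11.5) made up nearly the whole sum, and in Panc89 Paraclone cells IGFBP6 alone took 96.0% ± 0.132. These shares rest in part on IGFBP7 and IGFBP2, which led to the choice of genes, and are descriptions. The summed level itself was 183 ± 19.3 TPM in parental Panc1, 150 ± 42.4 TPM in Panc1 Holoclone and 170 ± 49.8 TPM in Panc1 Paraclone cells, ranges that overlapped. It was 298 ± 24.8 TPM in parental Panc89, 618 ± 69.0 TPM in Panc89 Holoclone and 378 ± 29.2 TPM in Panc89 Paraclone cells, where no ranges overlapped.

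**Figure D1:**
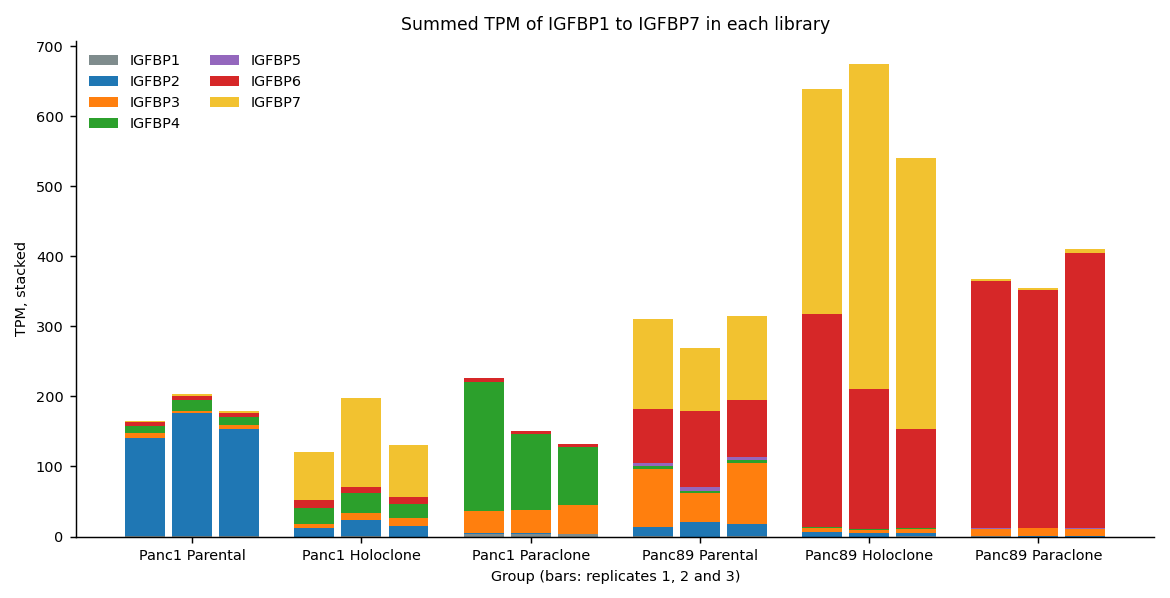
Stacked bars give the TPM of IGFBP1 to IGFBP7 in each of the 18 libraries, by group, with 3 replicates per group. IGFBP2 (blue) leads in parental Panc1, IGFBP4 (green) in Panc1 Paraclone, IGFBP6 (red) in Panc89 Paraclone and IGFBP7 (yellow) in both Holoclone groups.

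IGFBP7, the low-affinity member, had the widest range of all 8 genes. Its 3 libraries read 2.54, 3.15 and 3.22 TPM in parental Panc1 cells, 68.6, 127 and 75.2 TPM in Panc1 Holoclone cells and 0.0263, 0.0586 and 0.0363 TPM in Panc1 Paraclone cells. They read 128, 90.1 and 121 TPM in parental Panc89 cells, 322, 464 and 387 TPM in Panc89 Holoclone cells and 2.60, 1.77 and 5.03 TPM in Panc89 Paraclone cells. In both lines Holoclone cells were highest, parental cells intermediate and Paraclone cells lowest, and the 3 groups of a line did not overlap. In the order of all 6 groups, parental Panc89 and Panc1 Holoclone libraries overlapped, as did Panc89 Paraclone and parental Panc1 libraries. The Holoclone minus Paraclone difference was 6.40 in Panc1 and 6.63 in Panc89 on the log2(TPM + 1) scale, on which all differences are given and which understates changes of genes near or under 1 TPM. Against parental cells, IGFBP7 differed by 4.47 in the Holoclone and −1.93 in the Paraclone of Panc1, and by 1.78 and −4.85 in the corresponding clones of Panc89. Its difference between highest and lowest group mean, 8.54, lay at percentile 99.8 of the 16093 genes tested. Both of these groups hold values that led to the choice of the genes, so this place is a description. IGFBP7-AS1, an antisense RNA gene on chromosome 4 that overlaps the start of IGFBP7, was listed at 0 in 4 groups and had means of 0.0083 TPM in Panc1 Holoclone and 0.101 ± 0.0898 TPM in Panc89 Holoclone cells, and the strand setting of the quantification is not given in the sources used here.

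The genes whose levels over the 18 libraries were most like IGFBP7, among 10914 genes with a group mean of at least 10 TPM, were FOXP1, a forkhead transcription factor (Pearson's r = 0.964), LZTFL1, a regulator of ciliary trafficking (0.949), PHF2, a histone demethylase (0.934), SYBU, a linker of kinesin to its cargo (0.925), and B3GALT9 (0.918). The libraries share 6 groups, and these values are descriptions chosen as the highest of many. FOXP1 had group means of 2.95, 7.74 and 2.13 TPM across parental, Holoclone and Paraclone Panc1 cells and of 7.63, 17.8 and 2.70 TPM across the same variants of Panc89. Its r with IGFBP7 was 0.977 within the 9 Panc1 libraries and 0.963 within the 9 Panc89 libraries.

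**Figure D2:**
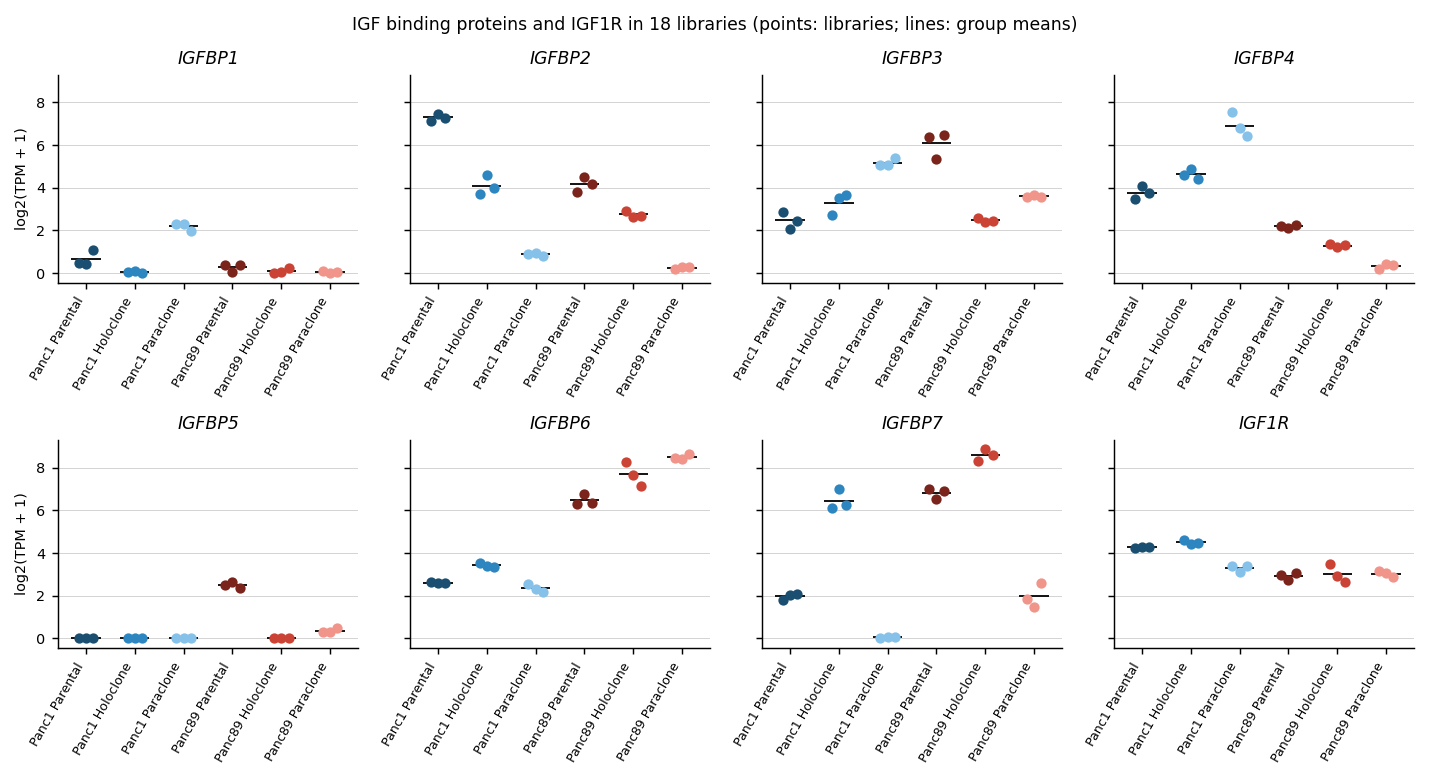
Each point is a library and each line a group mean, as log2(TPM + 1), for the 8 genes in the 6 groups. IGFBP7 is highest in the Holoclone cells of each line and lowest in the Paraclone cells, IGFBP2 is highest in parental cells of each line, the order of the variants in IGFBP4 is reversed between the lines, and IGFBP5 stands above 1 TPM in parental Panc89 libraries alone.

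IGFBP2, a binding protein that also carries an integrin-binding RGD motif, was highest in the parental cells of each line. It read 141, 176 and 153 TPM in parental Panc1 cells, 11.9, 23.1 and 14.8 TPM in Panc1 Holoclone cells and 0.877, 0.902 and 0.759 TPM in Panc1 Paraclone cells. In Panc89 it read 13.1, 21.4 and 17.3 TPM in parental, 6.64, 5.22 and 5.43 TPM in Holoclone and 0.125, 0.211 and 0.214 TPM in Paraclone cells. The order parental, Holoclone, Paraclone was the same in both lines and no groups of a line overlapped, while parental Panc89 and Panc1 Holoclone libraries overlapped across the lines. Against parental cells the Holoclone and the Paraclone of Panc1 differed by −3.21 and −6.41, and those of Panc89 by −1.41 and −3.92. DEPTOR, an inhibitor of mTOR kinase (r = 0.927), and GTPBP6 (r = 0.919) had the most similar levels over the 18 libraries.

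IGFBP5, a matrix-binding member and the neighbor of IGFBP2, was a gene of parental Panc89 cells. There it read 4.68, 5.26 and 4.16 TPM, against 0.0212, 0 and 0.00420 TPM in Panc89 Holoclone cells and 0.230, 0.225 and 0.389 TPM in Panc89 Paraclone cells. In Panc1 it did not exceed 0.0114 TPM and was listed at 0 in all 3 Holoclone libraries. The 3 parental Panc89 libraries were the only ones at 1 TPM, so the gene passed the filter on low values through the group where it was high. Relative to these parental cells it differed by −2.49 in Holoclone and by −2.15 in Paraclone cells, with no test. Of 6 endothelial markers, PECAM1 and CDH5 were highest in the same group. PECAM1 had means of 60.1 ± 6.12 TPM in parental Panc89, 0.856 ± 0.354 TPM in Panc89 Holoclone and 4.54 ± 2.50 TPM in Panc89 Paraclone cells, and the summed level of the list was 55.7 to 69.4, 1.55 to 2.50 and 5.37 to 10.8 TPM in these groups. CDH5 had means of 3.78 ± 1.60, 0.392 ± 0.142 and 1.59 ± 0.539 TPM in them. CLDN5 was instead highest in Panc89 Paraclone cells (2.19 ± 1.68 TPM, against 0.33 TPM in parental cells), TIE1 had means of at most 0.117 TPM in Panc89, and the defining markers VWF and KDR stayed under 1 TPM in every library. The part of these markers in the result was not tested. FZD10, a Wnt receptor (r = 0.976), and S100A8, a calcium-binding protein (r = 0.972), had the levels most like those of IGFBP5. Both had means of 0 in the Panc1 groups. Unlike IGFBP5, FZD10 was higher in Panc89 Holoclone (0.628 TPM) than in Panc89 Paraclone cells (0.0132 TPM).

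IGFBP3, the main IGF carrier of serum, was highest in Paraclone cells of Panc1 and in parental cells of Panc89. It read 6.37, 3.24 and 4.52 TPM in parental Panc1 cells, 5.63, 10.5 and 11.7 TPM in Panc1 Holoclone cells and 32.2, 32.7 and 40.6 TPM in Panc1 Paraclone cells. In Panc89, parental cells read 83.0, 40.2 and 87.5 TPM, Holoclone cells 4.98, 4.32 and 4.51 TPM and Paraclone cells 10.9, 11.7 and 10.7 TPM. Panc1 Paraclone cells thus stood above the other 2 Panc1 groups, and parental Panc89 cells above both Panc89 clones, while parental and Holoclone cells of Panc1 overlapped. IGFBP3 rose by 2.69 (SE 0.282) in Panc1 Paraclone against parental cells (adjusted p = 4.18e-06). Against parental Panc89 cells it changed by −3.59 in the Holoclone and by −2.48 in the Paraclone (adjusted p = 2.56e-07 and 1.83e-05). PECAM1 and CDH5, given beside IGFBP5, were highest in the same Panc89 group as IGFBP3, and their part in the result was not tested. CXCL1, a chemokine (r = 0.872), and GFPT2, an enzyme of hexosamine synthesis (r = 0.854), were most like IGFBP3.

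IGFBP1, the insulin-suppressed member best known from liver, was low in all groups. It reached 1 TPM only in the 3 Panc1 Paraclone libraries, at 3.98, 3.88 and 2.97 TPM, and in parental Panc1 replicate 3, at 1.09 TPM, the other parental Panc1 libraries reading 0.382 and 0.358 TPM. Panc1 Holoclone cells read 0.0210, 0.0715 and 0 TPM, and no Panc89 library exceeded 0.319 TPM. Panc1 Paraclone cells did not overlap with any other group, and the gene passed the filter through them. Against parental Panc1 cells the difference was 1.54, with no test. Its neighbor IGFBP3 was highest of the Panc1 groups in the Paraclone too, whereas in Panc89 IGFBP1 passed no test against parental cells. CD69 (r = 0.974), a lymphocyte activation antigen, and SCUBE3 (r = 0.961), a secreted EGF-domain protein, were most like IGFBP1. In the Panc89 groups CD69 had means of 0 and SCUBE3 of at most 0.0788 TPM, so both r rest mainly on the Panc1 groups.

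IGFBP4, a binding protein that inhibits IGF action and is cut by the protease PAPPA, was higher than in parental cells in the clones of Panc1 and lower in those of Panc89. It read 9.93, 16.1 and 12.4 TPM in parental Panc1 cells, 23.5, 28.0 and 20.2 TPM in Panc1 Holoclone cells and 184, 109 and 84.1 TPM in Panc1 Paraclone cells. In Panc89 it read 3.62, 3.37 and 3.70 TPM in parental cells, 1.54, 1.36 and 1.46 TPM in Holoclone cells and 0.156, 0.366 and 0.319 TPM in Paraclone cells. No neighbors in the order of the 6 groups overlapped, and all Panc1 groups lay above all Panc89 groups. The order of the variants was reversed between the lines. IGFBP4 was higher than in parental cells by 3.15 in Panc1 Paraclone cells (SE 0.227, adjusted p = 5.86e-08), whereas the Panc89 Holoclone and Paraclone differed from their parental cells by −0.90 and −1.84 (adjusted p = 0.00888 and 3.83e-05). BCAP31, a chaperone of the endoplasmic reticulum (r = 0.965), and CCL2, a chemokine (r = 0.961), were most like IGFBP4, but within the 9 Panc89 libraries r was 0.276 for BCAP31 and 0.632 for CCL2.

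IGFBP6, which prefers IGF2 to IGF1, was a gene of Panc89 cells. It read 77, 109.5 and 81.4 TPM in parental Panc89 cells, 304, 199 and 142 TPM in Panc89 Holoclone cells and 354, 340 and 394 TPM in Panc89 Paraclone cells. In Panc1 it read 5.3, 5 and 5 TPM in parental, 10.5, 9.56 and 9.18 TPM in Holoclone and 4.87, 3.95 and 3.57 TPM in Paraclone cells. No neighbors in the order of the 6 groups overlapped, and Paraclone cells were the highest variant of Panc89 and the lowest of Panc1. Against parental Panc89 cells IGFBP6 rose by 1.21 in the Holoclone and by 2.02 in the Paraclone (adjusted p = 0.000468 and 5.94e-06). BACE2, a membrane protease (r = 0.994), and S100A2, a calcium-binding protein of basal epithelia (r = 0.991), were most like IGFBP6. Within the 9 Panc1 libraries r was 0.954 for BACE2 but 0.599 for S100A2.

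IGF1R, the receptor, varied least of the 8 genes. It read 17.7, 18.2 and 18.8 TPM in parental Panc1 cells, 23.7, 20.7 and 21.2 TPM in Panc1 Holoclone cells and 9.48, 7.77 and 9.52 TPM in Panc1 Paraclone cells. The Panc89 libraries read 6.95, 5.72 and 7.29 TPM in parental, 10.1, 6.67 and 5.24 TPM in Holoclone and 7.88, 7.45 and 6.35 TPM in Paraclone cells. The 3 Panc89 groups overlapped with each other, while in Panc1 Holoclone cells were highest and Paraclone cells lowest with no overlap. IGF1R fell by 0.96 in Panc1 Paraclone against parental cells (SE 0.172, adjusted p = 0.000714). TGFBRAP1 (r = 0.981), an adaptor of TGF-beta receptors, and BCOR (r = 0.971), a transcriptional corepressor, were most like IGF1R. Its highest-to-lowest difference of 1.58 lay at percentile 61.8 of the genes tested, whereas those of IGFBP2, IGFBP4 and IGFBP6, 7.05, 6.56 and 6.15, lay at percentiles 99.4, 99 and 98.7. IGFBP2 had been singled out for its values, so its place is a description.

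The levels of some genes ran together in 1 line and against each other in the other. Over the 9 libraries of a line, which hold 3 groups each, IGFBP6 and IGFBP7 had r = 0.968 in Panc1 and −0.593 in Panc89. IGFBP2 and IGFBP4 had r = −0.927 in Panc1 and 0.980 in Panc89. IGFBP3 and IGFBP5 ran together in Panc89 (r = 0.952) but not in Panc1 (r = −0.037), where IGFBP5 had group means of at most 0.00379 TPM. These correlations rest on the same group differences as the levels above and are descriptions.

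The levels of the nearest tested genes beside the binding protein genes were read for comparison, leaving out any gene that overlaps a binding protein gene. RPL37A, a ribosomal protein gene 53647 bases from IGFBP2, had group means of 2673 to 3421 TPM. SPRYD3, 18031 bases from IGFBP6, had group means of 28.5 to 38.3 TPM, and CSAD on the other side had 8.19 to 12.3 TPM, against 4.13 to 363 TPM for IGFBP6. TNS4, an adhesion protein gene 18102 bases from IGFBP4, had means of 201, 143 and 267 TPM in parental, Holoclone and Paraclone cells of Panc89 and at most 0.331 TPM in Panc1. TOP2A on the other side of IGFBP4 had means of 65.8 to 136 TPM. NOA1, 53166 bases from IGFBP7, had means of 15.8 to 18.8 TPM in Panc1 and of 61.8 to 84.5 TPM in Panc89. ADGRL3, the nearest tested gene on the other side of IGFBP7 at a distance of 4089940 bases, had its highest Panc89 mean in Holoclone cells (12.2 TPM, against 4.32 TPM in parental and 3.45 TPM in Paraclone cells) and did not exceed a mean of 0.0733 TPM in Panc1.

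To compare the lines, parental Panc89 cells were set against parental Panc1 cells. Here IGFBP3, IGFBP6 and IGFBP7 were higher and IGFBP4 and IGF1R lower in Panc89, in a comparison that called 66% of all genes tested (limma, Benjamini-Hochberg adjusted p under 0.05, n = 3 per group). IGFBP7 was higher by 4.83 (SE 0.261, adjusted p = 2.02e-10), IGFBP6 by 3.87 (SE 0.206, 1.69e-10) and IGFBP3 by 3.60 (SE 0.282, 1.74e-08). IGFBP4 differed by −1.57 (SE 0.227, adjusted p = 1.66e-05) and IGF1R by −1.33 (SE 0.172, 5.03e-06). With no test, IGFBP2 differed by −3.13 and IGFBP5 by 2.50. The libraries of the groups did not overlap for any of the 8 genes, as was so for 73.3% of all genes. IGFBP1 differed by −0.38 (SE 0.166, adjusted p = 0.0542), and passed the threshold without parental Panc1 replicate 1 (adjusted p = 0.0344) or replicate 2 (0.0269). The summed level of the endothelial list was 0.281 to 0.47 TPM in parental Panc1 and 55.7 to 69.4 TPM in parental Panc89. Both it and the summed level of the mesenchymal list, which was mostly VIM in Panc1, moved with these differences. Their part in the differences was not tested.

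Between the Holoclone lines, IGFBP3, IGFBP4, IGFBP6 and IGF1R differed, in a comparison that called 65.8% of all genes. IGFBP6 was higher in Panc89 by 4.26 (SE 0.206, adjusted p = 5.03e-11), whereas IGFBP4 (−3.33, adjusted p = 3.19e-09), IGF1R (−1.5, 1.42e-06) and IGFBP3 (−0.82, 0.0183) were lower. The call of IGFBP3 was lost without Panc1 Holoclone replicate 2 (adjusted p = 0.0675) or replicate 3 (0.0877) and without Panc89 Holoclone replicate 2 (0.0507). IGFBP1 and IGFBP5, at or under 0.177 TPM in all these libraries, differed by 0.06 and 0.01 (adjusted p = 0.775 and 0.931). With no test, IGFBP7 was higher in Panc89 by 2.14 and IGFBP2 differed by −1.34.

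Between the Paraclone lines, IGFBP3, IGFBP4 and IGFBP6 differed, in a comparison that called 60.7% of all genes. IGFBP5, which had passed the filter on low values through parental Panc89 cells, was also called. IGFBP6 was higher in Panc89 Paraclone cells by 6.15 (SE 0.206, adjusted p = 6.05e-13), and IGFBP4 was lower (−6.56, SE 0.227, 8.95e-13). IGFBP6 led the summed level in the former and IGFBP4 in the latter. IGFBP3 was lower in Panc89 (−1.57, adjusted p = 0.000165), and IGFBP5, under 1 TPM in these libraries, was higher by 0.35 (0.00959), a call that was lost without Panc89 Paraclone replicate 3 (adjusted p = 0.0504). IGF1R differed by −0.27 (adjusted p = 0.188), and its libraries overlapped. With no test, IGFBP1 differed by −2.15, IGFBP2 by −0.64 and IGFBP7 by 1.91.

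Each clone was then compared with the parental cells of its line, the comparisons of a line sharing the same 3 parental libraries. In Panc1 Holoclone cells, 3 of 6 tested genes passed the threshold, against 10.9% of all genes: IGFBP4 was higher by 0.86 (SE 0.227, adjusted p = 0.0223), IGFBP6 by 0.81 (SE 0.206, 0.0176), and IGFBP1 fell by 0.61 (SE 0.166, 0.0251). These calls were close to the threshold. IGFBP1, with means of 0.0308 TPM in Holoclone and 0.611 TPM in parental cells, had passed the filter on low values through Panc1 Paraclone cells. That group is outside this comparison. IGFBP5, also among the 6, had means of at most 0.00379 TPM in both groups. Without parental Panc1 replicate 3 limma called 0 of the 6, with adjusted p of 0.0611, 0.0512 and 0.111 for IGFBP4, IGFBP6 and IGFBP1, while 4 of the 6 had an unadjusted p under 0.05. Without Panc1 Holoclone replicate 1 the count was 1, IGFBP3, which was higher by 1.12 (adjusted p = 0.0222) there and by 0.83 (0.0772) with all libraries. IGF1R differed by 0.25 (adjusted p = 0.433).

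In Panc1 Paraclone cells, IGFBP3 and IGFBP4 were called higher and IGF1R lower than in parental cells, in a comparison that called 28.6% of all genes. IGFBP6 differed by −0.26 (adjusted p = 0.399) and IGFBP5 lay at or near 0 TPM in both groups. The Holoclone and the Paraclone of Panc89 were compared with parental cells in tests that called 24.7% and 19.4% of all genes. In each, IGFBP3 and IGFBP4 were lower and IGFBP6 was higher than in parental cells, while IGF1R differed by 0.09 and 0.10 (adjusted p = 0.789 and 0.74) and IGFBP1 by −0.18 and −0.23 (0.502 and 0.39). Over all genes tested, 2.68% were called lower and 2.57% higher than parental cells in both Panc89 clones, which share their controls.

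**Figure D3:**
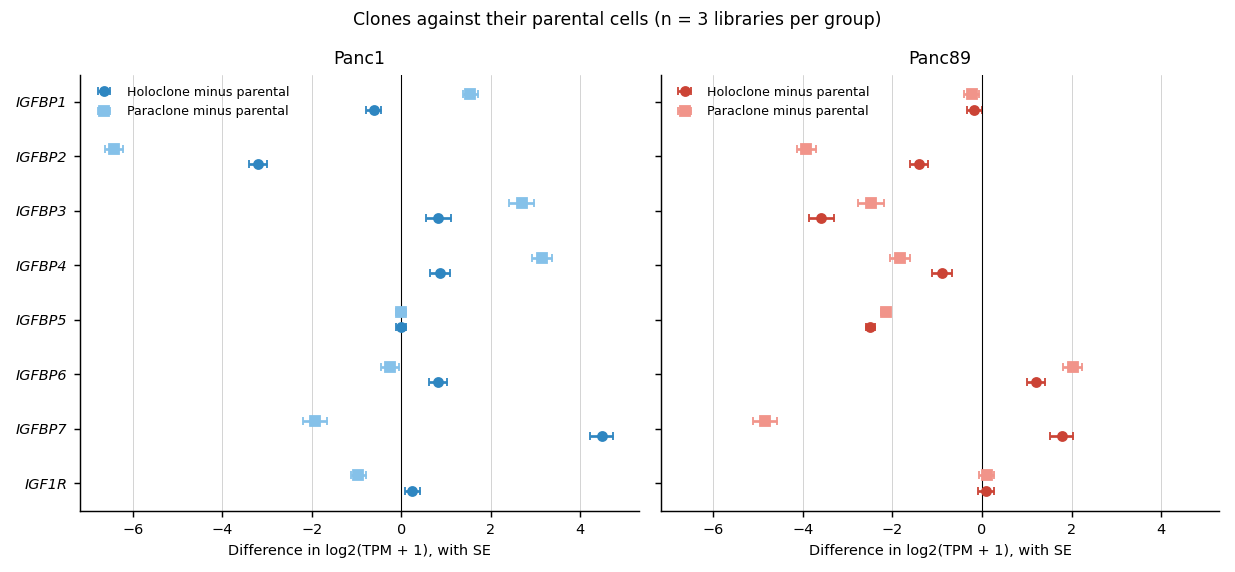
Points give the difference of each clone from the parental cells of its line in log2(TPM + 1), with the standard error of the fit, for n = 3 libraries per group. IGFBP3 and IGFBP4 lie right of 0 in the Panc1 Paraclone and left of 0 in both Panc89 clones, and IGFBP2 lies left of 0 in all 4 clones (IGFBP2 and IGFBP7, IGFBP1 in the Panc1 Paraclone and IGFBP5 in Panc89 carry no test).

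Whether a clone differed from its parental cells to another extent in Panc89 than in Panc1 was tested as an interaction. For the Holoclone change, where 18.7% of all genes were called, IGFBP3 (−4.42, SE 0.399, adjusted p = 2.03e-06) and IGFBP4 (−1.76, 0.00126) passed, each more negative in Panc89. IGFBP1, IGFBP6 and IGF1R gave 0.44, 0.39 and −0.16 (adjusted p = 0.227, 0.408 and 0.718). For the Paraclone change, where 25.8% of all genes were called, IGFBP3, IGFBP4, IGFBP6 and IGF1R passed. The differences were −5.17 for IGFBP3 (adjusted p = 2.88e-07), −4.98 for IGFBP4 (3.89e-08), 2.28 for IGFBP6 (4.47e-05) and 1.06 for IGF1R (0.0048). With no test, IGFBP5 gave −2.49 for the Holoclone and −2.15 for the Paraclone change, and IGFBP1 gave −1.77 for the Paraclone change.

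Within a line, Holoclone and Paraclone libraries did not overlap for 7 of the 8 genes in Panc1 (51.3% of all genes), the exception being IGFBP5, and for 6 of 8 in Panc89 (40.8% of all genes), the exceptions being IGFBP1 and IGF1R. Since this contrast led to the choice of the genes, nothing is read from these counts. Beside IGFBP7, IGFBP2 was higher in Holoclone cells of both lines, by 3.21 in Panc1 and 2.51 in Panc89, and IGFBP3 was lower (−1.86 and −1.11). IGFBP4 differed by −2.28 in Panc1 and by 0.94 in Panc89, and IGFBP6 by 1.07 and −0.82. IGF1R differed by 1.21 in Panc1 and −0.02 in Panc89.

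The other genes of the IGF axis were taken as a list of 44 ligands, receptors, carriers, IGFBP proteases and their inhibitors, proteins with an IGFBP-like domain, binding partners, adaptors and kinases. Of these, 34 passed the filter on low values. The ligand IGF1 did not exceed a group mean of 0.00786 TPM and INS was listed at 0 in every group. IGF2 was the measured ligand, with 9.69 ± 0.790 TPM in parental Panc1, 3.50 ± 0.292 TPM in Panc1 Holoclone and 113 ± 25.1 TPM in Panc1 Paraclone cells, and with group means of at most 0.163 TPM in Panc89. It was called higher in Panc1 Paraclone (3.40, adjusted p = 1.51e-10) and lower in Panc1 Holoclone cells (−1.25, 3.36e-05) than in parental Panc1 cells. Panc1 Paraclone cells thus had the highest levels of both IGF2 and IGFBP4, and the IGF2-preferring IGFBP6 was highest in Panc89, where IGF2 was near 0 TPM.

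Both other receptors were measured. IGF2R, which clears IGF2, had means of 91.1 to 104 TPM in the Panc1 groups and of 28.6 to 41.0 TPM in the Panc89 groups, and was lower in parental Panc89 than in parental Panc1 cells (−1.47, adjusted p = 1.59e-08). Within Panc89 it was higher in Holoclone than in parental cells by 0.35 (adjusted p = 0.0386). INSR, the insulin receptor, had means of 1.52 to 5.16 TPM. It was higher in Panc89 than in Panc1 in parental cells (0.55, adjusted p = 0.0307) and in Paraclone cells (1.03, 0.000545), and differed by 0.31 (0.205) between the Holoclone lines. It was lower in Panc89 Holoclone cells than in parental and Paraclone cells of that line (−0.81 and −0.99, adjusted p = 0.0104 and 0.00184).

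Of the genes that act on cleavage of the binding proteins, STC1 had the widest range. STC1, a stanniocalcin that inhibits the protease PAPPA, had means of 0.759 TPM in parental Panc1, 0.118 TPM in Panc1 Holoclone and 31.2 ± 2.84 TPM in Panc1 Paraclone cells, against 179 ± 32.6, 97.8 ± 26.4 and 918 ± 429 TPM across the same variants of Panc89. Paraclone cells were the highest variant of STC1 in each line, by 4.20 against parental cells in Panc1 (adjusted p = 2.97e-08) and by 2.24 in Panc89 (4.84e-05). STC2, its paralog, was higher in Holoclone than in Paraclone cells of Panc89 by 1.56 (adjusted p = 0.0163). HTRA1, a secreted protease that cuts IGFBP5, was lower than in parental Panc89 cells in the Holoclone (−2.85) and the Paraclone (−1.25, adjusted p = 1.18e-06 and 0.00287), and higher than in parental Panc1 cells by 0.85 in the Holoclone and by 1.14 in the Paraclone (0.0475 and 0.00411). PAPPA itself, named after its values were seen, had group means of 0.403 to 4.90 TPM and differed from parental Panc89 cells by −1.16 in the Holoclone and by 0.91 in the Paraclone (adjusted p = 6.44e-05 and 0.000741).

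**Figure D4:**
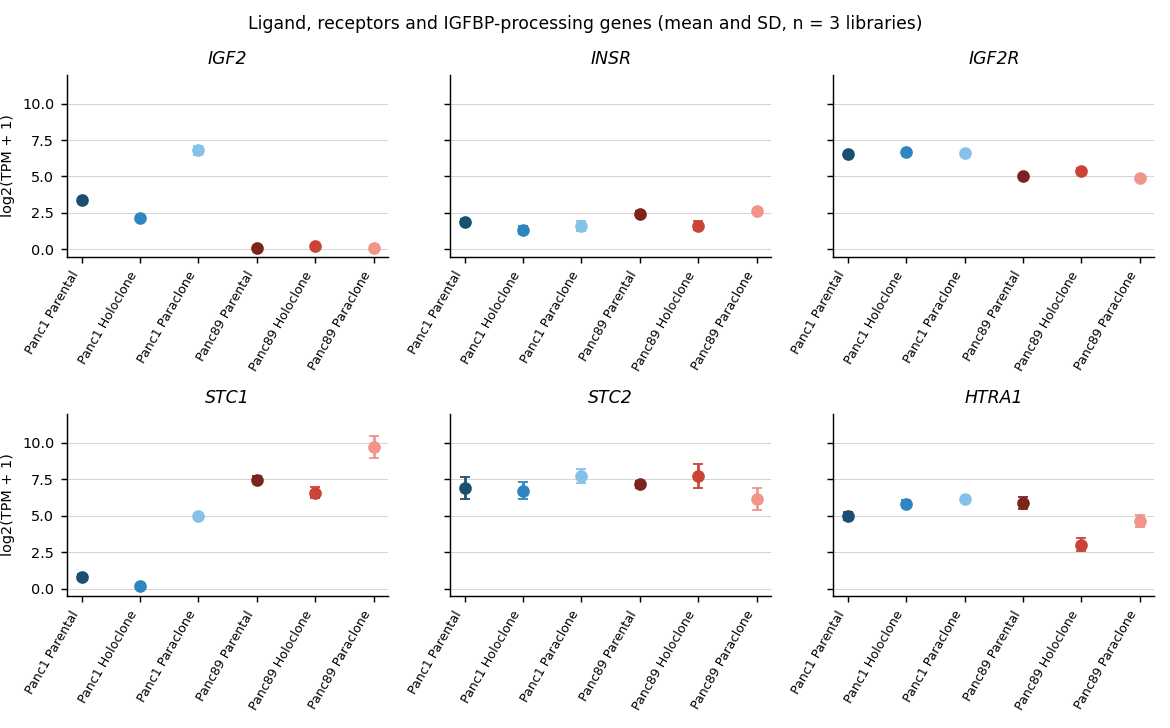
Points and bars give the mean and SD (n = 3 libraries) of log2(TPM + 1) for a ligand, IGF2, the receptors INSR and IGF2R, and STC1, STC2 and HTRA1, which act on IGFBP cleavage, in the 6 groups. IGF2 is highest in Panc1 Paraclone cells and near 0 in Panc89, and STC1 is highest in the Paraclone cells of each line.

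Between parental cells, 28 of the 34 axis genes passed the threshold, 11 higher and 17 lower in Panc89 (82.4%, against 66% of all genes), with a median of −0.44 against −0.18 over all genes. Of all genes, 27.5% were called higher and 38.5% lower. STC1 was higher by 6.67, IRS2, an insulin receptor substrate, by 2.26 and PIK3R2, a regulatory PI3K subunit, by 0.97 (adjusted p = 1.24e-11, 2.10e-06 and 3.99e-05). AKT2, a kinase downstream of IGF1R, was lower (−4.34, adjusted p = 7.55e-15), with a mean of 2468 TPM in parental Panc1 and 121 TPM in parental Panc89 cells. CRIM1 and CCN1, which carry IGFBP-like domains, were lower (−3.46 and −3.29, adjusted p = 5.70e-09 and 3.36e-07). Between the Holoclone lines 6 axis genes were higher and 21 lower in Panc89 (79.4% called, against 65.8% of all genes, median −0.56 against −0.11), and between the Paraclone lines 11 were higher and 17 lower (82.4% against 60.7%, median −0.37 against 0.00). Of all genes, 29.3% were called higher and 36.4% lower between the Holoclone lines. Between the Paraclone lines these shares were 30.2% and 30.4%. In the Holoclone lines AKT2, CCN5 and CRIM1 were lower in Panc89 (−4.49, −3.91 and −3.83), and STC1, PIK3R2 and IRS1 were higher by 6.43, 1.06 and 0.92. In the Paraclone lines IGF2, CCN2 and CCN1 were lower in Panc89 (−6.74, −4.58 and −3.91), and STC1, IRS2 and KAZALD1 were higher by 4.71, 1.99 and 1.61.

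Against parental Panc1 cells, 6 axis genes passed in Panc1 Holoclone cells, 4 higher and 2 lower (17.6%, against 10.9% of all genes, median 0.10 against 0.01), and 19 passed in Panc1 Paraclone cells, 6 higher and 13 lower (55.9% against 28.6%, median −0.10 against −0.17). All genes leaned to lower in Panc1 Paraclone cells too, with 7.31% called higher and 21.3% lower. In Panc1 Holoclone cells these shares were 5.87% and 5.06%. GRB2, an adaptor of receptor kinases, rose by 0.56 in Holoclone cells (adjusted p = 0.0194). In Paraclone cells KAZALD1, CCN5 and the PI3K subunit PIK3CB were lower (−1.59, −1.14 and −0.90, adjusted p = 0.000329, 0.018 and 0.00322).

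Against parental Panc89 cells, 13 axis genes passed in Panc89 Holoclone cells, 6 higher and 7 lower (38.2%, against 24.7% of all genes, median 0.00 against 0.08). This count was 8 without parental Panc89 replicate 1 or replicate 3 and 7 without Panc89 Holoclone replicate 2. Of all genes, 16.1% were called higher and 8.61% lower. GRB10, an adaptor that restrains insulin and IGF receptor signaling, was higher by 0.89, TMEM219, a cell-surface receptor of IGFBP3, by 0.49 and IRS1 by 0.49 (adjusted p = 0.0022, 0.00499 and 0.047). The PI3K subunit PIK3R3 and STC1 were lower (−1.26 and −0.88, adjusted p = 0.000372 and 0.0331). In Panc89 Paraclone cells 9 passed, 5 higher and 4 lower (26.5% against 19.4%, median 0.01 against −0.02). Of all genes, 9.37% were called higher and 10% lower there. TMEM219 was higher by 0.50 (adjusted p = 0.00543), and CCN2 and PIK3R3 were lower (−2.47 and −1.71, adjusted p = 0.004 and 3.52e-05).

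Between Holoclone and Paraclone cells, 17 axis genes passed in Panc1, 14 higher and 3 lower in Holoclone cells (50%, against 37.3% of all genes, median 0.34 against 0.19). All genes leaned the same way, with 27.4% called higher and 9.97% lower. Of all genes called there, 73.3% were higher, against 51.3% with upper quartile and 47.7% with median-of-ratios scaling. In Panc89, 14 axis genes passed, 6 higher and 8 lower (41.2%, against 35.7% of all genes, median 0.01 against 0.09). Of all genes, 22.4% were called higher and 13.3% lower in that comparison. In Panc1, KAZALD1, CCN5 and PIK3CB were higher in Holoclone cells by 1.41, 1.34 and 1.08, and STC1, IGF2 and the adaptor SHC1 were lower (−4.84, −4.64 and −1.12). In Panc89, CCN2 and IRS1 were higher in Holoclone cells by 2.88 and 0.76, and CCN5, STC1 and HTRA1 were lower (−3.50, −3.12 and −1.61). CCN5, a secreted matrix-associated protein, was thus called in opposite directions in the 2 lines. The difference between lines was tested for the clone-against-parental changes, where 10 of the 34 genes passed for the Holoclone change (3 higher, 7 lower in Panc89, 29.4% against 18.7% of all genes) and 15 for the Paraclone change (9 higher, 6 lower, 44.1% against 25.8%). Of all genes, 10.9% were called higher and 7.79% lower for the Holoclone change. For the Paraclone change these shares were 17% and 8.81%.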

How the data were processed

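RNA of 18 libraries, 3 passages for each of 6 cell variants, was sequenced by the authors as stranded mRNA with paired-end reads, quantified with kallisto (version 0.46.1 per the labels' processing notes) against Ensembl GRCh38 and summarized to scaled TPM by tximport. DESeq2, which the authors ran for their tests, needs counts and was not run here. The deposited values are log2(TPM + 1), 1 per gene symbol and library. Converted back, they sum to 985339 to 988066 TPM per library. TPM keep no read total, so depth and counting error are unknown, and no interval or floor is given.

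Groups and replicate numbers came from the deposited labels, which give no batch. Differences were fitted with limma 3.58.1 in R 4.3.3 (lmFit, eBayes with trend) on log2(TPM + 1), with a mean for each group and all 18 libraries sharing the residual spread. Tests covered the 16093 genes that reached 1 TPM in 3 or more libraries, p-values are two-sided, and Benjamini-Hochberg adjustment ran over all of them with a threshold of 0.05. The fit was tested on simulated data. Positions came from GENCODE 44 and promoter windows from RefSeq, both GRCh38.

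All 8 genes are named. Of the other IGF axis genes, IGF1, IGF2, INSR and IGF2R are named always, and in each comparison the 3 highest and 3 lowest called differences among genes whose higher group mean reached 10 TPM. The nearest tested protein-coding neighbors that do not overlap a member are named too, whereas INS, PAPPA, the marker genes and IGFBP7-AS1 stand outside this rule. Some results that the rule would name are not reported here. Genes most like a member are those with the highest r over the 18 libraries, 5 for IGFBP7 and 2 for each other gene. The members, lists and tests were chosen with earlier results of these data known.

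Alternatives were the pseudocount 0.1, dropping the filter on low values, a replicate block, upper quartile and median-of-ratios scaling, eBayes without trend, the compared groups alone and leaving out each library. Replicate numbers did not pair the libraries (18 same-number pairs, r from −0.318 to 0.190).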

Additional observations from a re-analysis of the deposited data

Results flagged for a closer look

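The changes of the clones from their parental cells differed between the lines for several genes, by the interaction test on the log2(TPM + 1) scale (limma, n = 3 per group, values as the Panc89 change minus the Panc1 change). For Holoclone cells these were IGFBP3 (−4.42), IGFBP4 (−1.76) and IGFBP5 (−2.49). For Paraclone cells these were IGFBP1 (−1.77), IGFBP3 (−5.17), IGFBP4 (−4.98), IGFBP5 (−2.15), IGFBP6 (2.28) and IGF1R (1.06). IGFBP1 and IGFBP5 passed the filter on low values through a group that enters these comparisons, so their values are descriptions.

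Holoclone and Paraclone cells differed in opposite directions in the lines, with every library of a group on the same side, for IGFBP4 (−2.28 in Panc1, 0.94 in Panc89) and IGFBP6 (1.07 in Panc1, −0.82 in Panc89). This difference was not tested, because the contrast had led to the choice of the genes.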

How the results depend on the processing

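Recomputed under the alternatives, 301 values of counts and of the IGFBP7 difference stayed close to those reported and 9 moved. For single genes and shares, 1182 recomputed values kept their direction and their side of the threshold or stayed close, 21 moved, 17 lost and 4 gained a call, and 8 changed sign. The fragile comparison was Panc1 Holoclone against parental Panc1, with 3 genes called, 1 in a fit of these groups alone, and 0 to 2 when a library was left out. The axis count of Panc89 Holoclone against parental Panc89 (13) ranged from 7 to 14 when a library was left out, and that of Panc89 Holoclone against Paraclone (14) was 8 in a fit of these groups alone. With a pseudocount of 0.1, the IGFBP7 difference between Holoclone and Paraclone cells was 9.28 in Panc1 and 7.03 in Panc89. The cause of these moves was not tested, beyond the fewer samples of the smaller fits and the smaller pseudocount, which widens differences of low values.

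The sign changes were all of differences that had passed no test. IGF1R in Panc89 Holoclone against parental cells was −0.00814 with upper quartile and −0.00594 with median-of-ratios scaling, and −0.14 to 0.27 without a library. IGFBP5 in Panc1 Paraclone against parental cells ranged from −0.00409 to 0.00406 (0.000656 without Panc1 Paraclone replicate 3) when a library was left out, IGFBP1 between the Holoclone lines from −0.00921 to 0.11, and the IGF1R interaction for Holoclone cells from −0.39 to 0.0259. Both scalings moved the median of all genes by at most 0.2, and that of parental Panc89 against parental Panc1 from −0.18 to 0.0191 with median-of-ratios scaling. The share of called genes that were higher moved from 25.6% to 47.4% (upper quartile) and 53% (median-of-ratios) in Panc1 Paraclone against parental cells, from 65.2% to 51.3% and 51% in Panc89 Holoclone against parental cells and from 73.3% to 51.3% and 47.7% in Panc1 Holoclone against Paraclone cells.

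With a replicate block, 2 genes instead of 3 were called in Panc1 Holoclone against parental cells, since IGFBP1 (−0.61) had an adjusted p of 0.0626, and the block changed no other call of the 8 genes. Same-number libraries share only a number, with 11 of 36 comparisons of a library with another group of its line highest for its own number. Without counts, the precision of low values such as those of IGFBP1 and IGFBP5 cannot be given.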
